A study of Mus musculus with 11 samples.

Results

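Injury-profile nuclei 21 days after infraorbital nerve transection (IOT) were the trigeminal nuclei that held at least 4 UMIs (unique molecular identifiers, each counting 1 captured RNA molecule) summed over Atf3, Sema6a, Sprr1a, Itgb6, Flrt3 and Gadd45a, with at least 2 of these 6 genes detected. They were chosen by these measured UMIs, and there were 250 such nuclei among the 4046 nuclei of the day 21 library and the 40359 nuclei of the whole series. They were set against nuclei of the same library with no UMI of any of the 6 genes, called gate-zero nuclei here, of which there were 2486. The remaining 1310 nuclei (32.4%) lay between the 2 definitions and entered neither group.

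The day 21 library came from C57BL mice (C57BL/6NCrl in the study's methods), by their label older than 6 weeks and labelled as spared nerve injury, in which the 3 superficial branches of the infraorbital nerve had been cut. Nuclei of the ganglion on the injured side were pooled from 10 mice of both sexes, so that no value can be tied to a mouse or a sex. The comparison libraries were IOT at days 2, 7 and 75 (C57BL, older than 6 weeks), facial skin incisions at day 2 (C57BL, older than 6 weeks), chronic scratching with skin lesions (FVBN/C57BL/129 mix, older than 6 weeks, heterozygous both for Fos-tTA and for tetO-mCherry-2A-Gnaq, a constitutively active mutant that Fos-tTA drives) and uninjured wildtype C57BL mice older than 6 weeks on 10x and on Drop-seq. All nuclei had been enriched with an antibody against the neuronal nuclear antigen NeuN, and the authors removed non-neuronal clusters before deposit. Because each injury condition was 1 library, differences within day 21 carry no test, and their intervals cover counting error only. The Drop-seq libraries of uninjured mice were deposited together, with no mark of the library on a nucleus.

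When the peripheral axon of a sensory neuron is cut, the cell body receives injury signals by retrograde transport and switches on a transcriptional program that favours survival and axon regrowth. Atf3 and Jun are stress-responsive transcription factors of that program, and Gap43, Sprr1a and stathmins are among its classical growth-associated genes. The same neurons are known to make neuropeptides such as galanin and neuropeptide Y that intact neurons make little of, and to lower genes for the channels and receptors of their normal sensory role.

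The 6 genes that chose the nuclei are described here without a test, since they define the group. Among the 250 injury-profile nuclei, Sema6a (a transmembrane semaphorin) was detected in 91.2% and Atf3 in 75.6%. Flrt3 (a leucine-rich repeat adhesion protein) was detected in 60%, Gadd45a (a stress-inducible growth arrest gene) in 54.8%, Sprr1a in 44.8% and the integrin subunit Itgb6 in 40%. Detection therefore rested mainly on Sema6a and Atf3, while Sprr1a and Itgb6 were missed in most nuclei. The injury-profile nuclei held 81.3% of all Sprr1a UMIs of the library and 77.9% of all Atf3 UMIs, but 33.3% of Flrt3 UMIs. The sum over the 6 genes had a median of 7 and reached 24, and 44 nuclei held 2 of the genes, 79 held 3, 60 held 4, 51 held 5 and 16 held all 6. Just inside the threshold were 52 nuclei with a sum of 4, and just outside were 108 nuclei with a sum of 3 and 12 nuclei that had 4 or more UMIs from a single gene.

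Injury-profile nuclei were 6.18% of the day 21 library (95% Clopper-Pearson interval 5.46 to 6.97). The same rule took 14.0% of nuclei at day 2, 7.91% at day 7 and 4.71% at day 75 after IOT, 1.43% after facial injury and 3.54% after scratch lesions. In uninjured mice it took 0.343% of the 10x nuclei, a table without Sprr1a, and 0.409% of the Drop-seq nuclei. The day 21 share was thus below those of days 2 and 7 and far above the background of uninjured ganglia, but the libraries differed in depth. With each nucleus thinned to 1000 UMIs, 1.16% passed at day 21 (0.855 to 1.54), 3.54% at day 2 and 2.17% at day 7. At day 75 0.440% passed (0.252 to 0.714), after facial injury 0.362% and after scratch lesions 0.930%. In the 10x control, gated without Sprr1a, 0 of 4368 passed, which allows up to 0.0844%. In the Drop-seq control, with all 6 genes, 0.223% passed (0.0898 to 0.459), an interval that overlaps that of day 75. The order of the 4 IOT times was the same at both depths.

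**Figure D1:**
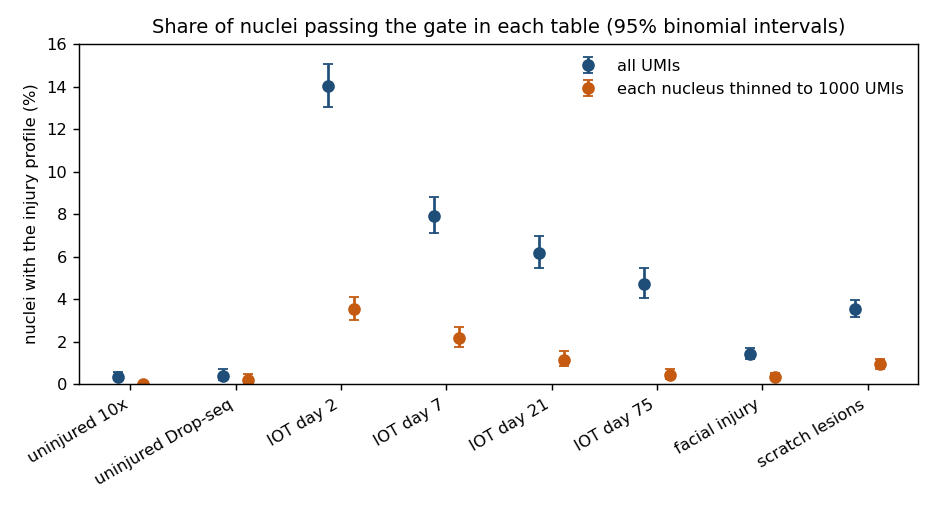
The share of nuclei that passed the 6-gene rule in each table (vertical axis, percent of nuclei), with all UMIs in blue and after thinning each nucleus to 1000 UMIs in orange; bars are 95% Clopper-Pearson intervals for counting error. At day 21 the points stand at 6.18% and 1.16%, between those of day 7 and day 75.

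The rule took deeper nuclei more often, so 750 gate-zero nuclei were drawn to match the depth of the 250 injury-profile nuclei. Median depths were then 3834 and 3855 UMIs without the 6 genes, against 2831 for all gate-zero nuclei. Thinned to 1000 UMIs, injury-profile nuclei held a median of 710 genes and matched gate-zero nuclei 706. Mitochondrial RNA was a median of 0.109% and 0.0905% of UMIs. Of 5 neuron markers 4 were in the table, and they summed to 2399 CPM (UMIs scaled to 1e+06 per group) in injury-profile and 3786 CPM in gate-zero nuclei. Snap25, a synaptic SNARE protein gene, stood at 1058 and 1160 CPM and was detected in 94.8% and 93.7% of nuclei. Rbfox3, which encodes NeuN, stood at 81.3 and 221 CPM and was more than 2-fold lower. The sodium channel gene Scn9a stood at 467 and 902 CPM and the mechanosensitive channel gene Piezo2 at 792 and 1502 CPM. Neuron markers were thus present in both groups, and their summed level was lower in injury-profile nuclei.

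Of the markers of other cells, 1 vascular gene differed 2-fold. Of 10 satellite glia markers 6 were counted and none differed 2-fold, with a summed level of 636 CPM in injury-profile and 496 CPM in gate-zero nuclei. Of 10 Schwann cell markers 5 were counted and none differed 2-fold, with sums of 514 and 520 CPM. The 8 leukocyte markers summed to 14.1 and 13.5 CPM, with Aif1 and Cd68 at 0 in injury-profile nuclei. The 8 fibroblast markers summed to 109 and 93.3 CPM, the 5 red cell genes to 39.7 and 42.2 CPM and the 8 vascular markers to 38.9 and 70.7 CPM, where Cldn5 and Acta2 were at 0 and Rgs5, a pericyte gene and the 1 counted vascular marker, was lower, at 4.42 against 30.5 CPM (5 and 104 UMIs). A doublet score that removed 202 nuclei of the library took 33 of the injury-profile nuclei (13.2%) and 75 gate-zero nuclei (3.02%). Between 17 and 42 cell barcodes of the day 21 library also occurred in each other 10x table, of which 0 to 2 per table belonged to injury-profile nuclei.

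UMIs were summed over each group and compared as CPM. A gene was counted where it had at least 20 CPM in 1 of the groups, and called where the groups differed at least 2-fold. Of 8153 genes counted, 379 (4.65%) were higher and 376 (4.61%) were lower in injury-profile nuclei. The median log2 ratio over all counted genes was -0.02. These shares are the background for the counts by list below. Without the nuclei of high doublet score 420 were higher and 454 were lower. In bulk sums like these, more nuclei that use a gene and more RNA per nucleus cannot be told apart, so the share of nuclei with a UMI is given beside the level of the leading genes.

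**Figure D2:**
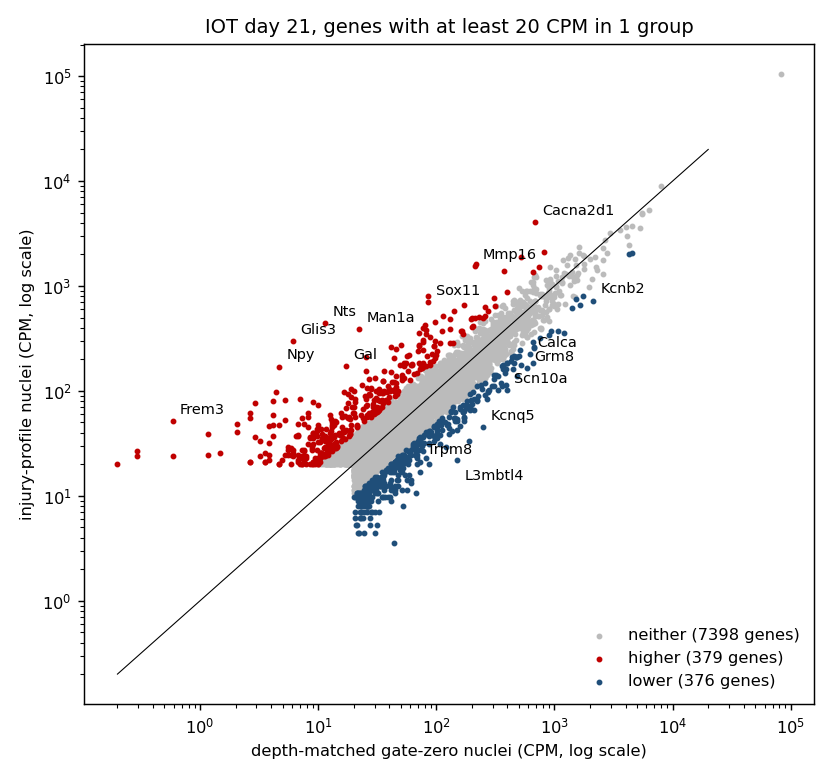
Level of each of the 8153 counted genes in injury-profile nuclei (vertical axis, CPM, log scale) against depth-matched gate-zero nuclei (horizontal axis, CPM, log scale) at day 21; red points are the 379 genes at least 2-fold higher, blue points the 376 genes at least 2-fold lower, and genes without a UMI in a group lie at the lowest value of that axis. Nts, Npy, Glis3 and Frem3 sit far above the diagonal at low gate-zero levels, while Kcnb2, Calca, Scn10a and Kcnq5 sit below it.

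The 12 genes with the largest ratios among those above 50 CPM were Frem3, Glis3, Nts, Npy, 4930509E16Rik, Fst, Car3, Hrk, Ltbp1, Man1a, Adam8 and Csf1. Frem3, a matrix protein gene of the Fras1 family (chr8:80611080-80695356, GRCm38), stood at 51.2 CPM against 0.587 CPM. Its 58 and 2 UMIs gave a log2 ratio of 6.45 with a wide 95% interval of 4.53 to 9.53. Glis3, a Krüppel-like zinc finger transcription factor (chr19:28258851-28680077), stood at 297 CPM against 6.16 CPM, a ratio of 48.2 (31.0 to 78.9). It was detected in 52.4% of injury-profile nuclei and 2.40% of gate-zero nuclei, which makes it one of the most widespread of these genes. Fst encodes follistatin, a binding protein of activins, and was at 60.9 against 2.64 CPM. Ltbp1, which holds latent TGF-beta in the matrix, was at 80.4 against 4.11 CPM. Man1a, a Golgi mannosidase that trims N-glycans, was at 386 against 22.3 CPM and was detected in 58% against 8.40% of nuclei. Hrk, a BH3-only gene of the apoptosis pathway, was at 54.8 against 2.64 CPM, Adam8, a membrane metalloprotease, at 81.3 against 5.28 CPM, and Car3, a carbonic anhydrase, at 97.1 against 4.40 CPM. The long noncoding RNA 4930509E16Rik was at 76.8 against 2.93 CPM.

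Neuropeptides gave the highest median of any list. Of 6 peptides known to appear after axotomy, Gal, Npy and Nts were counted and all were higher, with a median log2 ratio of 5.18. Vip, Cck and Crh had no UMI among the 1132302 UMIs of the 250 nuclei, so no rise of them was seen. They stood at 0.293, 0.880 and 0.293 CPM in gate-zero nuclei, too low for a fall to be detectable at this depth. Nts, which encodes neurotensin (chr10:102481756-102490486), reached 441 CPM against 11.4 CPM, a ratio of 38.5 (27.8 to 54.8), and was detected in 52.4% against 4.13% of nuclei. Npy, for neuropeptide Y (chr6:49822710-49829507), reached 170 against 4.69 CPM, a ratio of 36.3 (21.8 to 64.8). Gal, for galanin (chr19:3409915-3414544), reached 172 against 17.3 CPM, a ratio of 9.95 (7.40 to 13.6). In gate-zero nuclei of uninjured mice, matched to the same depths, Nts was at 3.46 and Gal at 21.0 CPM, and Npy was not analysed there. The peptides of intact nociceptors went the other way. Of 9 such genes 5 were counted, 1 was higher and 3 were lower. Calca, for CGRP, was at 223 against 621 CPM, Tac1, for substance P, at 110 against 295 CPM and Calcb at 30 against 76.0 CPM. The exception was Adcyap1, for the peptide PACAP, at 92.7 against 27.0 CPM.

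Promoters were searched for TGANTCA, the AP-1 site at which Jun dimers bind, and TGACGTCA, the cAMP response element at which Atf3 dimers bind as well. Both strands were read, and neither motif contains the other. The windows were the 300 bases from 250 before to 50 after the start of each gene, from RefSeq on GRCm38.p6. Among the 12 genes with the largest ratios, 10 had a promoter in the set, 1 held the first motif (Nts) and 1 the second (Ltbp1). These 2 are printed because they show where in a leading gene each motif lay, with the motif in capitals and each sequence 5′ to 3′ on the strand of its gene. The Nts window is chr10:102490369-102490668 on the minus strand, with the motif beginning 207 bases before the start, and the Ltbp1 window is chr17:75005279-75005578 on the plus strand, with the motif beginning 73 bases before the start.
Nts: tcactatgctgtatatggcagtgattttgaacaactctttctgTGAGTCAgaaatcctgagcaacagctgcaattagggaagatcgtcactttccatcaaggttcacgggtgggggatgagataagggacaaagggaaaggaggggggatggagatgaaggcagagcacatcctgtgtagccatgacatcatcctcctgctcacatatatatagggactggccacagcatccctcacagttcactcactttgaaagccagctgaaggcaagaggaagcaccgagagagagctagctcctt
Ltbp1: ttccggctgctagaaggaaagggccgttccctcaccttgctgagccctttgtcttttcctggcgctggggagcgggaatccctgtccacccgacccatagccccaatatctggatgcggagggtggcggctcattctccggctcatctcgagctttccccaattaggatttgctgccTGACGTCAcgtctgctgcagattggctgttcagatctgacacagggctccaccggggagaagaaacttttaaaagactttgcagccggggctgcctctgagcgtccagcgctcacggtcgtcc
Palld and Dusp1, higher genes of the cytoskeleton and of the immediate early response, were chosen after their values were seen as further examples of the same motifs. TGANTCA was also in the windows of Grm8 and Dhcr7, which were lower genes and are not printed. The Palld window is chr8:61591090-61591389, minus strand, with TGANTCA beginning 54 bases before the start, and the Dusp1 window is chr17:26508423-26508722, minus strand, with TGACGTCA beginning 143 bases before the start.
Palld: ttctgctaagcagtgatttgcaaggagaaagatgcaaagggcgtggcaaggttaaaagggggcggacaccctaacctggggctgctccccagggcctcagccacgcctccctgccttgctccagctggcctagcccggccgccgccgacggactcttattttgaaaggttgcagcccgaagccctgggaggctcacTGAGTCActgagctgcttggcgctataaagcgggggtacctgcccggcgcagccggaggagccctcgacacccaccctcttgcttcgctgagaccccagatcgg
Dusp1: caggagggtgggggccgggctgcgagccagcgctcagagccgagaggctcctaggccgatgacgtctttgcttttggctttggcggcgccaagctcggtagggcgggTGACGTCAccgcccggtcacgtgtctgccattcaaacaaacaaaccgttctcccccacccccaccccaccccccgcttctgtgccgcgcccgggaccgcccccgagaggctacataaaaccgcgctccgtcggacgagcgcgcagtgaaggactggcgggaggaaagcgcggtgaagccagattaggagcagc
The motifs were not more common in promoters of the higher genes than in those of all genes counted. TGANTCA was in 14 of 260 promoters of higher genes (5.38%), in 16 of 260 of lower genes (6.15%), in 5.80% of all genes counted and in 8.97% of all 27025 promoters. TGACGTCA was in 6 (2.31%), 2 (0.769%), 3.86% and 2.03% in the same order. A match is a description of letters, and the windows do not cover distal elements.

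Of 16 injury-associated transcription factors 10 were counted, 5 were higher and 0 were lower. Sox11, an HMG-box factor of growing neurons, was the leading one at 707 CPM against 85.6 CPM, a ratio of 8.25 (7.21 to 9.47), detected in 85.6% against 26.7% of nuclei. Pou2f1, an octamer-binding factor, stood at 384 against 81.5 CPM and Klf6, a growth-associated zinc finger factor, at 96.3 against 35.5 CPM. Jun stood at 226 against 91.2 CPM and Smad1, which carries BMP signals, at 286 against 129 CPM. Stat3, a cytokine-activated factor, stood at 188 against 203 CPM. The log2 ratio of Stat3 was -0.11 (-0.34 to 0.12). The factors thus differed among themselves, from a ratio of 8.25 for Sox11 to a log2 ratio of -0.69 for the lowest member.

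Of 21 growth and regeneration genes 19 were counted, 10 were higher and 1 was lower, with a median log2 ratio of 1.21. Ecel1, an endothelin-converting enzyme-like protease of damaged neurons, had 27 and 1 UMIs, a log2 ratio of 6.35 (3.74 to 11.70). Tubb6, a beta-tubulin, was at 36.2 against 2.93 CPM and Stmn4, a tubulin-binding stathmin, at 131 against 26.7 CPM. Gap43, the growth cone protein, was at 627 against 257 CPM and was detected in 81.2% against 39.9% of nuclei. The adhesion molecules Chl1 and Ncam1 were at 657 against 172 CPM and 386 against 132 CPM. Stmn2, the best known stathmin of regrowing axons, was at 2098 against 809 CPM. The lower member was Nrn1, for neuritin, a secreted neurite growth protein, at 120 against 354 CPM.

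Of 12 cytokines 3 were counted and 1 was higher. Csf1, the growth factor of macrophages and microglia (chr3:107741048-107760469), was at 58.3 against 4.11 CPM, a ratio of 14.2 (7.89 to 27.4), detected in 21.2% against 1.73% of nuclei. Il34, the other ligand of the Csf1 receptor, was at 25.6 against 14.7 CPM and was not called. Of 12 growth factor and cytokine receptors counted, 2 were higher and 1 was lower. Gfra1, the co-receptor of GDNF, was at 513 against 115 CPM and was detected in 70% against 29.5% of nuclei. Its signalling partner Ret was at 343 against 346 CPM, a log2 ratio of -0.01 (-0.18 to 0.15). The interleukin-1 receptor Il1r1 was at 26.5 against 7.62 CPM, and the neurotrophin receptor Ngfr was lower, at 79.5 against 222 CPM.

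Genes for contact with the matrix were higher in part. Of 16 matrix and protease genes counted 5 were higher and 0 were lower, among them Frem3, Adam8 and Ecel1. Mmp16, a membrane-anchored metalloprotease (chr4:17852893-18119145), stood at 1541 against 214 CPM, a ratio of 7.21 (6.61 to 7.87), in 90% against 53.1% of nuclei. Timp3, a metalloprotease inhibitor, was at 88.3 against 19.1 CPM. Of 5 integrin subunits counted 3 were higher. Itga7, a laminin receptor subunit, was at 215 against 56.9 CPM, Itgb5 at 27.4 against 9.68 CPM and Itga6 at 92.7 against 46.3 CPM, and Itga6 lost its call on thinned nuclei with a log2 ratio of -0.12. Among 23 cytoskeleton genes counted 5 were higher and 1 was lower. Lmo7 was at 97.1 against 16.4 CPM, Palld, an actin-bundling protein, at 426 against 80.1 CPM, Myo10, a motor of filopodia, at 268 against 71.0 CPM and the tropomyosin Tpm4 at 61.8 against 19.6 CPM. The lower one was the actin crosslinker Actn1, at 17.7 against 40.2 CPM. Of 29 axon guidance genes counted 1 was higher, Sema3c at 67.1 against 23.8 CPM. Another 2 were lower, Plxnd1, a semaphorin receptor, at 7.07 against 30.5 CPM and Sema5a at 98.0 against 272 CPM. Of all counted genes 4.65% were higher and 4.61% lower, so the axon guidance counts were near the background.

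Ion channels were lower more often than higher, with a few subunits apart. Of 36 potassium channel genes counted 13 were lower and 2 were higher, and 32 had a ratio below 0 on the log2 scale, with a median of -0.79. Kcnb2, a delayed rectifier, was at 724 against 2135 CPM. Kcnq5, a channel of the M-current that restrains firing (chr1:21398403-21961942), was at 45.0 against 249 CPM, a log2 ratio of -2.47 (-2.91 to -2.06), and was detected in 8.40% against 26.0% of nuclei. The sodium-activated Kcnt2 was at 29.1 against 121 CPM and Kcnd3, an A-type channel, at 56.5 against 171 CPM. Kcnma1, the large-conductance calcium-activated channel, was higher, at 369 against 166 CPM. Of 11 sodium channel genes counted 3 were lower and 0 were higher. Scn10a, for the nociceptor channel Nav1.8 (chr9:119608456-119719322), was at 102 against 396 CPM, a log2 ratio of -1.96 (-2.25 to -1.69), and its neighbour in the genome Scn11a, for Nav1.9, was at 20.3 against 68.6 CPM. The beta subunit Scn2b was at 12.4 against 44.9 CPM. Scn9a, for Nav1.7, was at 467 against 902 CPM, just short of 2-fold. Scn3a, an embryonic channel known to return after nerve injury, was at 178 against 126 CPM and was not called.

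Of 11 calcium channel genes counted 1 was higher and 3 were lower. The higher one was Cacna2d1 (chr5:15934691-16374511), for the alpha2delta-1 subunit that binds gabapentin, at 4082 against 680 CPM. Its ratio was 6.01 (5.71 to 6.31), and it was detected in 96.4% against 80% of nuclei. With each nucleus thinned to 1000 UMIs these shares were 88.8% and 46.5%. The related subunit Cacna2d2 was lower, at 26.5 against 76.8 CPM, as were the T-type channel Cacna1h, at 9.71 against 34.6 CPM, and the L-type channel Cacna1c, at 208 against 438 CPM.

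Of 19 sensory transduction genes counted 11 were lower and 1 was higher, with a median log2 ratio of -1.18. Trpm8, the cold receptor (chr1:88277661-88389293), was at 21.2 against 72.1 CPM and Trpm3, a heat-sensitive channel, at 102 against 332 CPM. Trpv1, the capsaicin receptor, was at 8.83 against 21.7 CPM and the ATP-gated P2rx3 at 7.95 against 25.5 CPM. The higher gene was another ATP-gated channel, P2rx5, at 27.4 against 8.80 CPM. Piezo2, the channel of light touch, was at 792 against 1502 CPM, short of 2-fold. The nicotinic subunit Chrna7 was at 20.3 against 87.4 CPM. Mrgprd, a receptor of nonpeptidergic nociceptors, had no UMI in injury-profile nuclei and 18 in gate-zero nuclei. It was below the minimum of 20 CPM and so was not among the genes counted. With its missing count set to a floor of 3 it was 1.99-fold lower, a value that the floor sets and not a limit.

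Of 8 inhibitory receptors counted 4 were lower and 0 were higher. The mu opioid receptor Oprm1 was at 62.7 against 169 CPM, the metabotropic glutamate receptor Grm8 at 164 against 583 CPM, the adrenergic receptor Adra2c at 5.30 against 27.3 CPM and the GABA-B subunit Gabbr2 at 111 against 223 CPM. Glutamate and GABA-A receptor subunits split, with 3 higher and 5 lower of 18 counted. The GABA-A subunits Gabrg1 and Gabrb1 were at 264 against 41.3 CPM and 273 against 71.0 CPM, and the kainate receptor Grik3 was at 61.8 against 19.9 CPM. The kainate receptor Grik1 was lower, at 339 against 892 CPM. Synaptic release genes were lower in 4 and higher in 0 of 27 counted, where 4.61% of all counted genes were lower. Their median log2 ratio was -0.20 against -0.02 over all counted genes, and 18 were below 0. Among the lower ones were the calcium sensor Syt7 at 62.7 against 168 CPM and the release factor Unc13c at 89.2 against 226 CPM.

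Genes of neuron classes differed by size class. Of 17 genes of small diameter neurons counted 16 were lower and 0 were higher, with a median log2 ratio of -1.40, although some of them, such as Calca, Scn10a and Trpm8, also belong to lists above. Of 19 genes of large diameter neurons counted 1 was lower and 1 was higher, with a median of -0.07. These counts were near the shares over all counted genes, 4.61% lower and 4.65% higher. The neurofilament Nefh was at 798 against 791 CPM and S100b at 373 against 428 CPM. The higher one was Spp1, for osteopontin, at 97.1 against 38.1 CPM, and the lower one Rgs6, a regulator of G protein signalling, at 140 against 317 CPM. The share of large and small neurons among the 250 nuclei and a change of level within each class cannot be told apart from these sums. Of 23 transcription factors of neuronal identity counted 7 were lower and 0 were higher. Prdm12, a factor of nociceptors, was at 47.7 against 124 CPM, Etv1, an ETS factor, at 8.83 against 41.3 CPM, Bcl11b at 10.6 against 44.3 CPM and Tshz2 at 319 against 759 CPM.

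Stress and cell death genes were higher in part, with 6 of 16 counted and 0 lower. Besides Hrk these included the cell cycle inhibitor Cdkn1a, at 41.5 against 9.68 CPM, and Gadd45g, a relative of a gate gene, at 101 against 40.5 CPM. Of the immediate early genes 1 was counted, Dusp1, a phosphatase of MAP kinases, at 55.6 against 17.9 CPM. Cholesterol synthesis had 1 of 12 counted lower (Dhcr7, at 6.18 against 20.5 CPM) and 0 higher, with a median log2 ratio of 0.17. Over all counted genes 4.61% were lower and 4.65% higher.

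**Figure D3:**
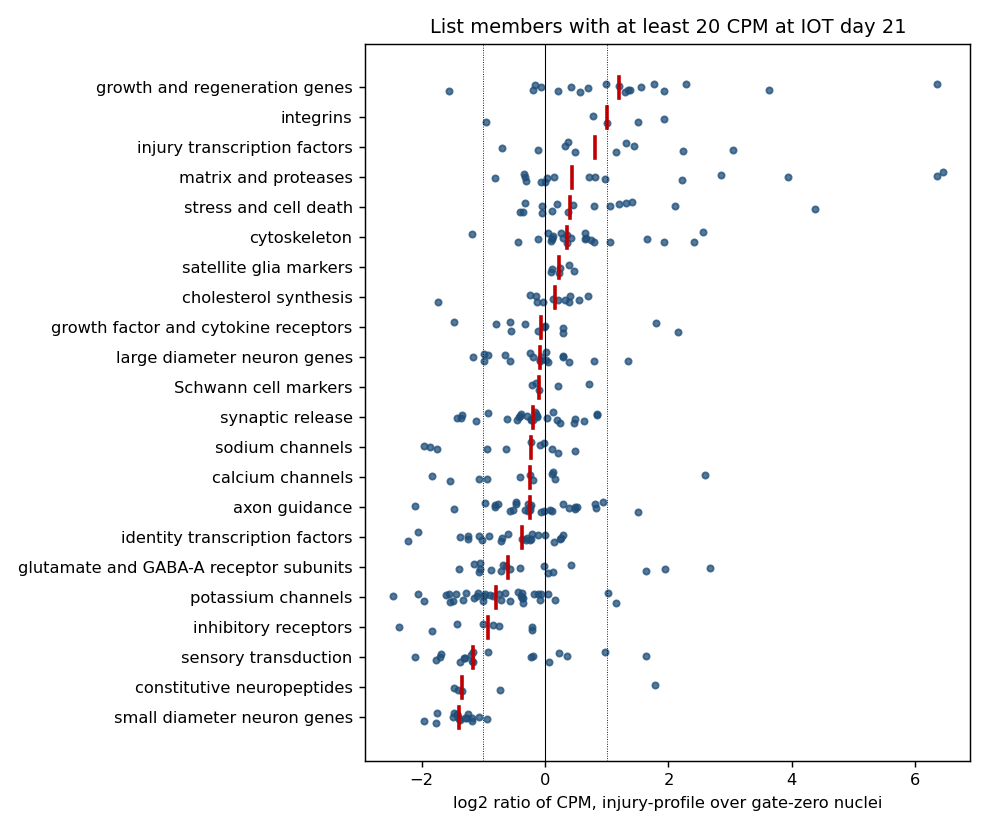
Log2 ratio of CPM in injury-profile over gate-zero nuclei at day 21 (horizontal axis) for each counted member of each list with at least 5 counted members (rows), without the lists that the study itself drew from these nuclei; red bars are list medians and dotted lines mark 2-fold. The medians run from 1.21 for growth and regeneration genes to -1.40 for small diameter neuron genes, with the glial lists near 0.

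The remaining genes with the lowest ratios above 50 CPM carried varied roles. L3mbtl4, an MBT-domain chromatin gene, led them at 22.08 against 150 CPM, a log2 ratio of -2.77 (-3.41 to -2.19). Adam12, a metalloprotease, was at 10.6 against 66.9 CPM, Pde11a, a cyclic nucleotide phosphodiesterase, at 33.6 against 190 CPM and Bmpr1b, a BMP receptor, at 11.5 against 56.3 CPM. Htr1b, the serotonin receptor that triptans bind, was at 11.5 against 50.7 CPM, Vav2, an exchange factor of small GTPases, at 14.1 against 61.3 CPM, Hs3st4, a heparan sulfate sulfotransferase, at 16.8 against 72.4 CPM and Syne4, a nesprin, at 13.2 against 61.6 CPM. The unannotated RP24-163J22.10 was at 7.95 against 51.9 CPM, but uninjured gate-zero nuclei had 4.95 CPM of it, so that its direction depended on the reference. In a separate comparison with a depth-matched draw of uninjured gate-zero nuclei its log2 ratio was 1.15.

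Levels were then followed across the sum of the 6 gate genes, from 0 to 10 or more UMIs. Nts stood at 14.1 CPM in nuclei with a sum of 0, at 18.4 with 1, 26.0 with 2, 122 with 3, 204 with 4 to 5, 314 with 6 to 9 and 727 with 10 or more. Npy ran from 3.64 CPM at 0 to 46.8 at 3 and 278 at 10 or more. Both peptides were thus already higher just below the threshold, in the 108 nuclei with a sum of 3. Gal was at 20.5, 16.5, 16.8 and 25 CPM for sums of 0 to 3 and at 114 for 4 to 5, and Sox11 went from 92.8 CPM at 0 to 186 at 3, 472 at 4 to 5 and 859 at 10 or more. On the lower side Kcnq5 stood at 208 CPM at 0, 130 at 3, 100 at 4 to 5, 34.5 at 6 to 9 and 6.73 at 10 or more. Scn10a went from 373 CPM at 0 to 261 at 3, 174 at 4 to 5 and 31.4 at 10 or more. The bins differed in depth, with median UMIs from 2831 at 0 to 4697 at 3, 3277 at 4 to 5 and 4610 at 10 or more. The part of depth in these values was not tested. Satellite glia markers summed to between 470 and 547 CPM in the bins up to 6 to 9 and to 866 CPM at 10 or more, and their part in the values of that bin was not tested.

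**Figure D4:**
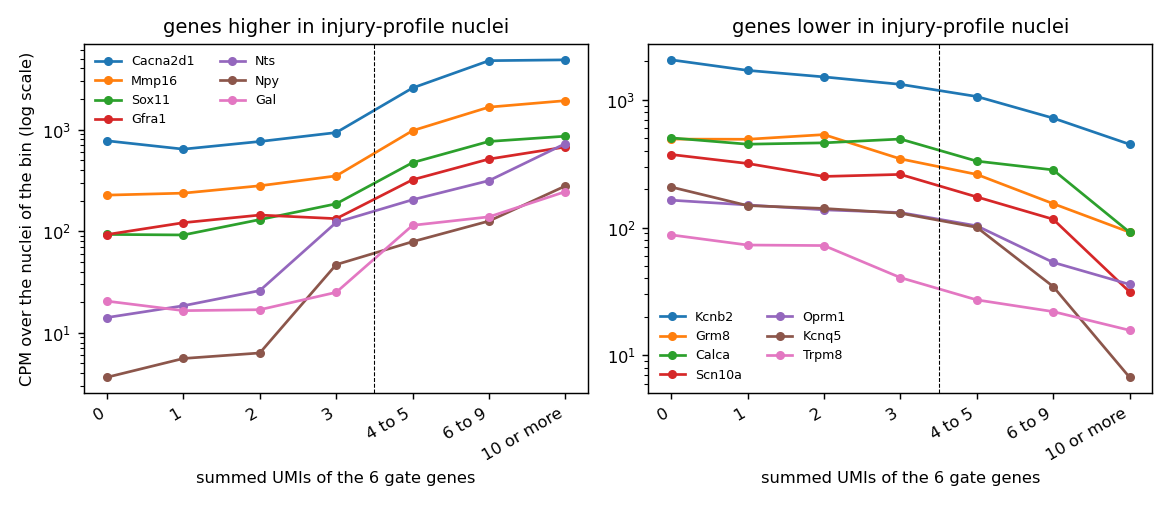
Level of 7 higher genes (left) and 7 lower genes (right) over nuclei binned by the summed UMIs of the 6 gate genes at day 21 (horizontal axis), as CPM over the nuclei of each bin (vertical axis, log scale); the dashed line marks the threshold of 4. From a sum of 3 to the highest bin, Nts goes from 122 to 727 CPM and Kcnq5 from 130 to 6.73 CPM. Nts is already higher at a sum of 3 than in the bins below it.

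Injury-profile nuclei were not alike in their peptides. Of the 250 nuclei 30% had no UMI of Gal, Npy or Nts, 36% had 1 of the 3 genes, 26% had 2 and 8% had all 3. In matched gate-zero nuclei these shares were 87.6%, 12%, 0.4% and 0. Npy was detected in 42.0% of the nuclei with Nts and in 16.8% of those without it, and in 38.3% of the nuclei with Gfra1 against 10.7% without it. Gal was detected in 25.2% of the nuclei with Pcdh7, a protocadherin gene of the large diameter neuron list, and in 52.5% of those without it. Tshz2 was detected in 41.4% of the nuclei with Pcdh7 and in 72.5% of those without, while Gfra1 was detected in 77.6% and 30%. Nts was detected in 58.3% of the nuclei with Gfra1 and in 38.7% of those without it. Npy was detected in 33.3% with and 12.5% without Pcdh7, and Tshz2 in 41.7% with and 57.3% without Gfra1. Gal was detected in 36.2% of the nuclei with Tshz2 and in 23.9% of those without it. Smaller differences were those of Gal with and without Npy (34.7% and 27.4%) and with and without Nts (33.6% and 25.2%). The following pairs showed no such split. Gal was detected in 29.7% of the nuclei with Gfra1 and 29.3% of those without it, and Nts in 52.4% with and 52.5% without Pcdh7. With and without Tshz2, Nts was detected in 53.4% and 51.5% and Npy in 28.4% and 31.3%. The pairs were compared at unequal depth per nucleus, and the part of depth in them was not tested. These shares describe nuclei of 1 library and carry no test, and a nucleus without a UMI may still hold the RNA.

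To ask whether the day 21 calls recurred, the same rule was applied to the other IOT libraries, whose counts had not entered those calls. The gate genes were chosen with earlier results of these data known, so recurrence is no independent replication. Sums over injury-profile and depth-matched gate-zero nuclei were tested with edgeR's quasi-likelihood test, library as a block and Benjamini-Hochberg adjustment. The fit also held facial injury and scratch lesions with a separate effect, and these 2 libraries entered its estimate of spread. Replication here is over libraries of different times and injuries, and p-values measure the spread between them. With day 21 left out and the 3 other IOT libraries as the effect, 947 of 13496 genes were higher (7.02%) and 592 were lower (4.39%). Of the 379 genes higher at day 21, 378 were tested and 301 of them (79.6%) were higher with adjusted p under 0.05, 0 were lower, and 369 had the same sign. Of the 376 lower genes, 374 were tested, 245 (65.5%) were lower, 0 were higher, and 361 had the same sign. Read the other way, the 301 genes were 31.8% of the 947 and the 245 genes 41.4% of the 592. With day 21 included, the same fit called 1365 of 13654 genes higher (10.0%) and 1043 lower (7.64%) over the 4 IOT libraries. Without day 2 these counts were 774 and 555, and the lower count was 650 without day 7 and 592 without day 21. Fitted on the 4 IOT libraries alone, without facial injury and scratch lesions, 1328 of 14150 genes were higher and 884 were lower.

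The 379 higher genes had a median log2 ratio of 1.17 at day 2, 1.40 at day 7, 1.53 at day 21 and 0.68 at day 75, and of 1.02 after facial injury and 0.75 after scratch lesions. The 376 lower genes had medians of -0.96, -1.46, -1.32, -0.44, -0.77 and -0.64 in the same order. The day 21 values were used to choose these genes and are therefore raised by that choice, while those of the other libraries were not. The day 75 medians were the smallest in both directions. Injury-profile nuclei of day 75 were also the deepest, with a median of 6234 UMIs against 3846 at day 21. The rule took deeper nuclei more often, and the part of depth in these medians was not tested.

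In the fit without day 21 Frem3 was higher by 5.26 on the log2 scale (adjusted p = 2.67e-09), Glis3 by 4.31 (adjusted p = 9.61e-06), Nts by 4.36 (adjusted p = 3.71e-07), Npy by 4.44 (adjusted p = 9.61e-06) and Gal by 3.39 (adjusted p = 0.000105), all by edgeR's quasi-likelihood test with Benjamini-Hochberg adjustment. Sox11 was higher by 2.77 (adjusted p = 2.13e-06), Cacna2d1 by 2.48 (adjusted p = 5.08e-05), Csf1 by 3.11 (adjusted p = 5.24e-06) and Gfra1 by 2.13 (adjusted p = 3.4e-05) in that test. Kcnq5 had a log2 fold change of -1.84 (adjusted p = 9.61e-06), Scn10a of -1.70 (adjusted p = 0.00127), Trpm8 of -1.82 (adjusted p = 0.000276) and Calca of -1.18 (adjusted p = 0.0125). Each of these 13 genes had the direction of day 21. The study lists Nts, Npy, Gal, Sox11, Gfra1, Scn10a and Calca among its changed genes, chosen on these libraries. For these genes the fit is thus no independent evidence. Not every difference of day 21 passed: Spp1 had 0.56 (adjusted p = 0.11), Itga6 0.25 (adjusted p = 0.314), Ngfr -0.91 (adjusted p = 0.0777), Cacna1h -0.30 (adjusted p = 0.584) and Dhcr7 -0.09 (adjusted p = 0.884).

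Over all genes tested, the fit without day 21 called 7.02% higher and 4.39% lower. By list, it called 12 of 20 growth and regeneration genes tested higher and 1 lower. Of 15 injury transcription factors it called 7 higher and 0 lower, and of 25 cytoskeleton genes 11 higher and 0 lower. It called 18 of 19 small diameter neuron genes lower and 0 higher. Of 20 large diameter neuron genes it called 2 lower and 1 higher, near the shares over all genes tested. It called 23 of 38 potassium channel genes lower and 2 higher, 13 of 23 sensory transduction genes lower and 1 higher, and 8 of 28 identity factors lower and 0 higher. All 11 genes that the study lists as induced were higher and 13 of 14 that it lists as repressed were lower, which is no independent evidence, since the study chose them on these libraries. Of 10 satellite glia markers 2 were higher and 0 lower in this fit, among them Glul by 0.88 (adjusted p = 0.00257).

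Over the 6 injury libraries the level of the peptides in injury-profile nuclei varied widely. Gal stood at 266 CPM at day 2, 367 at day 7, 172 at day 21 and 29.5 at day 75, and at 664 CPM after facial injury and 1716 CPM after scratch lesions. Gate-zero nuclei had between 10.6 and 60.7 CPM of Gal in the same libraries, lower than the injury-profile nuclei of their own library in all 6, although the range over libraries overlapped with the value of day 75. Nts stood at 35.3, 239, 441 and 138 CPM over the 4 IOT times, at 297 CPM after facial injury and at 240 CPM after scratch lesions. Npy stood at 20.4, 232, 170 and 56.0 CPM over the IOT times, 22.3 CPM after facial injury and 11 CPM after scratch lesions. Day 21 was thus the library with the highest Nts, while the highest Gal was in scratch lesions and the highest Npy at day 7. Cacna2d1 stood at 4502, 3276, 4082 and 1363 CPM over the IOT times and at 1914 and 1739 CPM in the minor injuries, against 392 to 691 CPM in gate-zero nuclei. The libraries differed in depth, with day 75 the deepest, and the part of depth in these levels was not tested.

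**Figure D5:**
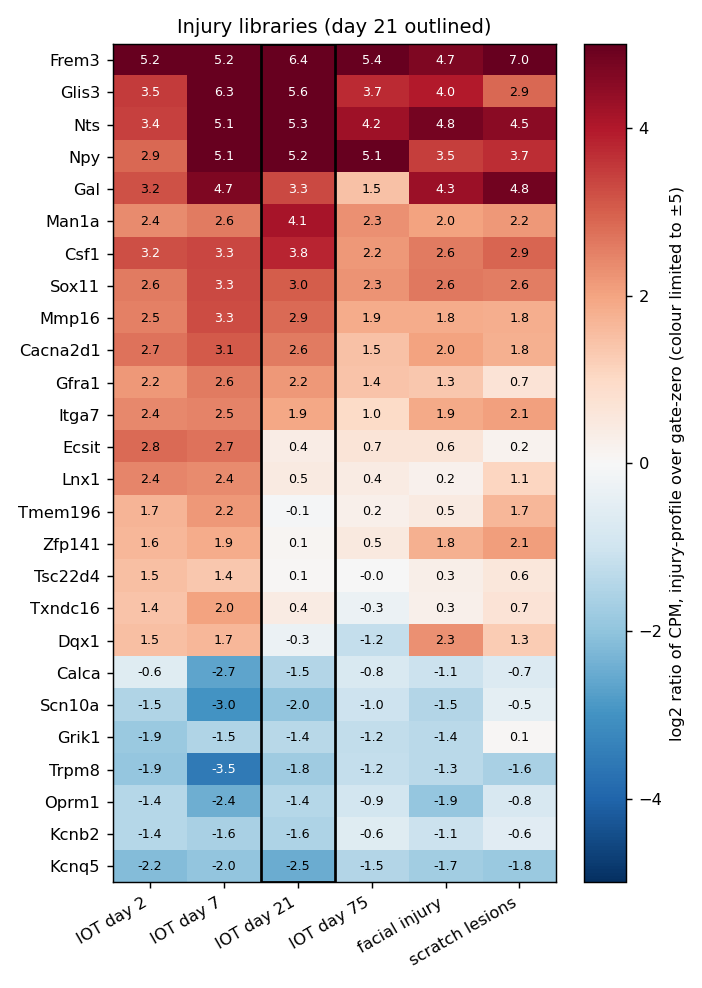
Log2 ratio of CPM in injury-profile over depth-matched gate-zero nuclei for 26 genes (rows) in the 6 injury libraries (columns), red where higher and blue where lower, with day 21 outlined. Frem3 to Itga7 are above 0 in all 6 libraries, and 7 genes from Ecsit to Dqx1 are above 1 at days 2 and 7 and between -0.30 and 0.46 at day 21.

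A term for day 21 against the other 3 IOT libraries asked what differed at that time. By edgeR's quasi-likelihood test with Benjamini-Hochberg adjustment 0 of 14434 genes were higher (0%) and 0 were lower (0%), while 151 and 241 had an unadjusted p under 0.05. DESeq2 called 0 and 0 as well. Man1a had the smallest p, with a term of 1.65 on the log2 scale and an adjusted p of 0.536, with a log2 ratio of 4.11 at day 21 and 2.35, 2.60 and 2.27 at days 2, 7 and 75. A difference between day 21 and the other times that misses this threshold is not shown to be absent.

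A term for days 21 and 75 against days 2 and 7 gave 0 of 13654 genes higher (0%) and 7 lower (0.0513%) by the same test, with 402 and 562 at an unadjusted p under 0.05 and 0 and 3 called by DESeq2. All 7 were genes higher in injury-profile nuclei at days 2 and 7 and near the gate-zero level at day 21, where the interval of the log2 ratio included 0 for each of them. Ecsit, an adaptor of Toll signalling and mitochondrial complex I assembly, stood at 156 and 180 CPM at days 2 and 7 against 21.7 and 27.3 CPM in gate-zero nuclei. At days 21 and 75 it stood at 30.9 and 38.1 CPM against 23.8 and 24.1 CPM, a late term of -2.36 on the log2 scale (adjusted p = 0.000566). Lnx1, a ubiquitin ligase of the Numb protein, went from 210 and 172 CPM to 43.3 and 39.5 CPM. Tmem196, a transmembrane protein gene, went from 227 and 307 CPM to 62.7 and 69.0 CPM. The other 4 were Dqx1, Txndc16, Zfp141 and Tsc22d4. The calls rested on 2 libraries a side, and without day 2 they numbered 4 higher and 7 lower, without day 7 0 higher and 13 lower, without day 21 15 higher and 47 lower, and without day 75 2 higher and 4 lower.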

How the data were processed

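Single-nucleus RNA of mouse trigeminal ganglia was measured in 11 samples held in 8 tables. Per the study's methods, ganglia were frozen, neuronal nuclei were pulled out with microbeads against NeuN, and libraries were made with 10x version 2 or Drop-seq. Mapping to mm10 kept intronic reads, and the submitters' processing notes list Seurat 2, STAR 2.5.3a, Cell Ranger 2.1.0 and bcl2fastq 2.17 as tools. Nuclei with too few genes or too much mitochondrial RNA had been filtered out, as had clusters that were not neurons. The values deposited by the authors are raw UMI counts, with no normalization. The day 21 table holds 15895166 UMIs over 20690 genes, with a median of 3138 per nucleus. A sum of 1132302 UMIs sets the precision of the injury-profile levels.

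Groups came from the labels. Gate genes were left out of totals and results. Gate-zero nuclei were drawn at up to 3 per injury-profile nucleus within 20 depth bins. Ratios of CPM carry exact conditional binomial 95% intervals, shares Clopper-Pearson intervals, both for counting error only. Sums per library (6 injury libraries, 12 sums) went through edgeR 4.0.16 in R 4.3.3, with TMM scaling, its filter on low counts, library as a block and a threshold of 0.05 on Benjamini-Hochberg adjusted p. The injury libraries each stand alone at their time or injury, so each term assumes that they vary alike. Depth could be matched only in part at day 2 (medians of 4273 and 3697 UMIs) and day 75 (6229 and 5706.5). The library block pairs injury-profile and gate-zero nuclei of the same mice. Scripts were tested on simulated data.

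The members, gene lists and comparisons were chosen with earlier results of these data known. Genes named are list members, chiefly the 4 with the largest ratio per list, the 12 largest ratios each way at 50 CPM or more, and the 10 largest effects per fit. Coordinates are from GENCODE vM21 on GRCm38, in which 96.1% of the day 21 symbols were found. The annotation used by the authors, and whether counting used strand, are not given in the sources used here, so that overlapping and antisense genes, such as Anxa11os and Ctcflos among the largest effects, are uncertain. Alternatives were other gate-zero nuclei, other gates, thinning to 1000 UMIs, removal of the 5% of nuclei with the highest doublet score, TMM scaling, other minimum levels, DESeq2 1.42.0, no TMM, no filter, no block, the IOT libraries alone and each IOT library left out. Drop-seq entered no test.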

Additional observations from a re-analysis of the deposited data

Results flagged for a closer look

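Among the genes tested, 7 differed between the late and the early IOT libraries in their injury-profile effect (days 21 and 75 against days 2 and 7, edgeR's quasi-likelihood test with Benjamini-Hochberg adjustment, 2 libraries a side), and all 7 were lower late. The late term was -2.57 on the log2 scale for Dqx1 (adjusted p = 0.0139), -2.36 for Ecsit (adjusted p = 0.000566), -2.07 for Lnx1 (adjusted p = 0.0019) and -1.92 for Tmem196 (adjusted p = 0.00895). It was -1.71 for Txndc16 (adjusted p = 0.0437), -1.53 for Zfp141 (adjusted p = 0.0149) and -1.52 for Tsc22d4 (adjusted p = 0.0323). At day 21 injury-profile and gate-zero nuclei stood at 53.0 and 49.9 CPM for Zfp141, 34.4 and 33.1 CPM for Tsc22d4, 38.0 and 28.4 CPM for Txndc16 and 6.18 and 7.62 CPM for Dqx1. At day 2 the same genes stood at 157 and 50.4, 114 and 40.2, 121 and 44.9, and 72.0 and 25.3 CPM. Ecsit, Lnx1, Tmem196 and Zfp141 kept their call with any 1 IOT library left out. Dqx1 and Tsc22d4 lost it without day 2 (adjusted p = 0.0726 and 0.126) and without day 75 (0.799 and 0.246), and Txndc16 without day 7 (0.0973) and without day 75 (0.552). With the stricter gate 2 of the 7 kept it (Ecsit and Lnx1), with DESeq2 3 (Ecsit, Lnx1 and Tmem196), without TMM scaling and with the 4 IOT libraries alone 5 (without Txndc16 and Tsc22d4), and without the library block 0. Injury-profile nuclei were deeper than their gate-zero nuclei at day 2 and day 75, and the part of that in these values was not tested.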

How the results depend on the processing

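The share of nuclei passing the gate at day 21 (6.18%) was 1.16% after thinning to 1000 UMIs, 3.71% with at least 6 UMIs of 3 genes and 8.26% with at least 3 UMIs, and 5.09%, 3.81% and 5.34% without Atf3, Sema6a or Flrt3. The 379 higher and 376 lower genes became 572 and 779 against gate-zero nuclei of uninjured mice, 912 and 964 when thinned, 243 and 191 with the looser gate, 925 and 1123 with no minimum CPM and 209 and 198 above 50 CPM. Thinning left fewer UMIs per gene and the looser gate added nuclei, and the part of either in these counts was not tested. Of 102 genes named (101 against uninjured nuclei) and called at day 21, 86 to 101 stayed 2-fold in the same direction under the alternatives of day 21, and the signs that changed were those of Itga6 (thinned, -0.12) and RP24-163J22.10 (against uninjured nuclei, 1.15).

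The effect over IOT libraries (1365 higher, 1043 lower) gave 866 and 514 with DESeq2. Without the replicate block, which here is the library, it gave 252 and 56. With 1 IOT library left out it ranged from 774 to 1757 higher and from 555 to 1361 lower. The day 21 term called 2 genes higher without a filter on low counts and, with 1 library left out, 0 to 2 higher and 0 to 4 lower. The late term (0 higher, 7 lower) gave 13 and 80 without the filter, 3 lower with DESeq2, 0 without the replicate block, 11 with all gate-zero nuclei and 2 with the stricter gate, and 0 to 15 higher and 4 to 47 lower with 1 library left out. The cause was not tested. Depth limits genes near the minimum of 20 CPM, whose intervals are wide.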
